A study of Caenorhabditis elegans with 21 samples.

Results

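OMA-1 is a CCCH zinc finger protein of the oocyte cytoplasm that binds the 3′ untranslated regions of maternal mRNAs and holds back their translation until the embryo begins to divide. FZY-1 is the Cdc20-type activator of the anaphase promoting complex/cyclosome (APC/C), the ubiquitin ligase that drives the exit from meiosis and mitosis. RNA immunoprecipitation followed by sequencing (RIP-seq) reads how much of each mRNA is recovered with a tagged protein, and an input library gives the level of the mRNA before the pull-down.

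The comparison described here asks which mRNAs changed their recovery with OMA-1(P240L)::GFP when *fzy-1* carried D433N. It uses 8 of the 21 libraries of the series, 2 RIP and 2 input libraries from each of the strains fzy-1;oma-1ts-gfp and oma-1ts-gfp. In both strains the *oma-1* gene carries the P240L allele zu405 fused to *gfp*, and fzy-1;oma-1ts-gfp carries *fzy-1*(D433N) besides. The strain oma-1-gfp has the same tag on OMA-1 without P240L, and its 4 libraries were set beside the comparison without entering it. All strains were grown from synchronized larvae at 25 °C to young adults and about 100000 whole animals were ground per sample. OMA-1::GFP was pulled down with a GFP nanobody on magnetic beads. The tag stands at the gene's own locus, fzy-1;oma-1ts-gfp was obtained by crossing, and each genotype is represented by a single strain. No RIP from a strain without the tag was analysed here, so recovery on the beads alone was not measured. Because whole worms were lysed, fewer cells of a type and less RNA per cell cannot be told apart. Nothing in the labels says that the 2 repeats of a group came from separate cultures, so the p-values measure the spread between these libraries, which may be technical.

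Levels are RPKM as the authors deposited them, which are read counts scaled to the length of the gene and the size of the library. The enrichment of a gene in a strain is the mean log2(RPKM + 1) in RIP minus that in input, and the change of enrichment is the enrichment in fzy-1;oma-1ts-gfp minus that in oma-1ts-gfp. Of 18887 genes, 11503 reached 1 RPKM in at least 2 of the 8 libraries and were tested with limma. A gene was called at an adjusted p under 0.05 and a change above 1 or below -1 on this log2 scale, which draws low values together. It understates the change of low genes, and it can also give a change of enrichment where a gene is low in one strain only. Replicates of a group correlated across the genes tested with r between 0.963 for fzy-1;oma-1ts-gfp RIP and 0.991 for oma-1ts-gfp input. The values give no read totals, but the steps between low values gave each library's depth relative to fzy-1;oma-1ts-gfp input replicate 1. It lay between 82.9% and 98.6% for 6 other libraries and at 49.0% for fzy-1;oma-1ts-gfp RIP replicate 2, the shallowest. Between 13004 and 16543 genes had a value above 0 in a library.

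Enrichment was higher in fzy-1;oma-1ts-gfp for 666 genes, 5.79% of those tested, and lower for 378 genes, 3.29%. The median change over all genes tested was -0.03. For 616 of the 666 higher genes (92.5%) and 288 of the 378 lower genes (76.2%), the difference between strains was larger in RIP than in input, as it was for 67.2% of all genes tested. The median RIP difference was 1.97 for the higher genes and -1.24 for the lower genes, while their median input differences of 0.18 and 0.13 lay near the 0.16 of all genes tested. Tested on its own, the RIP difference was called higher for 600 of the 666 genes (background 18.7% of all genes higher and 8.44% lower) and lower for 247 of the 378. The input difference was called higher for 45 and lower for 41 of the 666 genes, and higher for 80 and lower for 4 of the 378 (background 7.17% higher and 2.12% lower). The RIP and input differences make up the change by which these genes were chosen. These shares, medians and counts therefore describe the calls and do not test them. Among the 7637 genes whose input difference was within 0.5, 380 (4.98%) were called higher and 235 (3.08%) lower. In each of the 1044 called genes the enrichments of the strains did not overlap over all pairings of a RIP with an input library of the same strain. Such separation was met by 20.8% of all genes tested above and 21.7% below, so it adds little to the call.

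**Figure D1:**
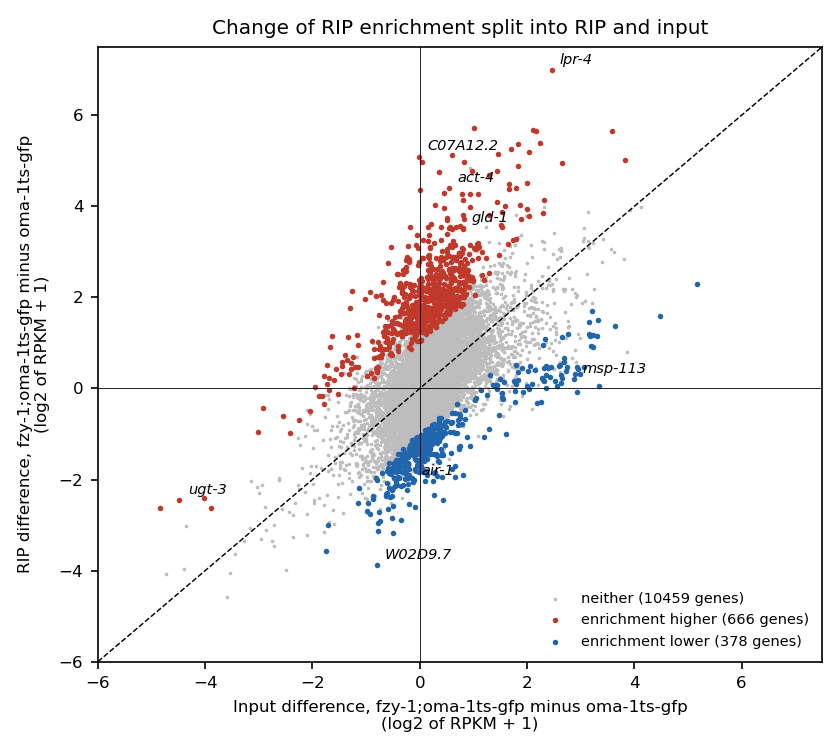
Each point is 1 of the 11503 genes tested. The x axis gives the input difference and the y axis the RIP difference between fzy-1;oma-1ts-gfp and oma-1ts-gfp, both on log2(RPKM + 1). Distance from the dashed line of equal differences is the change of enrichment, and the 666 higher genes (red) and 378 lower genes (blue) fall on either side of it. Most called genes lie above or below an input difference near 0, while *msp-113* and *ugt-3* are examples of genes whose input moved more than their RIP.

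The number of calls depended on single libraries. Without oma-1ts-gfp input replicate 1, 203 genes were higher and 52 lower, without its input replicate 2 193 and 50, and without its RIP replicate 1 252 and 77. Without oma-1ts-gfp RIP replicate 2, 151 genes were lower, and without fzy-1;oma-1ts-gfp input replicate 1, 372 were higher and 126 lower. Leaving out fzy-1;oma-1ts-gfp RIP replicate 1 gave 830 higher and 736 lower genes. When each library was rescaled to the same sum, 542 genes were higher and 592 lower, so that higher genes made up 47.8% of the calls against 63.8%. After the same rescaling without sperm and mitochondria-encoded genes they were 556 and 558 (49.9%). Of the 112 called genes named by the rule given in the methods, 50 kept their call without each library in turn. For the others, the number of these 8 fits in which the call was kept is given.

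The mRNAs held to be repressed by OMA-1 moved in both directions. In a list of 16 such targets, 3 were higher (18.8%), 2 were lower (12.5%) and 11 did not pass. All genes tested gave 5.79% and 3.29%, and the median change of the list was 0.31. The most stable was *rnf-5*, which encodes a RING finger ubiquitin ligase of the endoplasmic reticulum. It stood at 112 and 129 RPKM in fzy-1;oma-1ts-gfp RIP and 21.5 and 23.2 RPKM in its input, against 19.9 and 28 RPKM in oma-1ts-gfp RIP and 21.3 and 18.6 RPKM in its input. Inputs of the strains differed by 0.16 on the log2 scale and the RIP values by 2.30. The change was 2.14 with a standard error of 0.30 (limma adjusted p = 0.00371), and the call was kept in all 8 fits without 1 library. *rnf-5* was also recovered above input in oma-1-gfp, with an enrichment of 2.10.

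*mom-2*, the Wnt ligand that induces endoderm in the early embryo, was the most abundant of these mRNAs in fzy-1;oma-1ts-gfp RIP. It had 1733 and 3141 RPKM in fzy-1;oma-1ts-gfp RIP and 247 and 121 RPKM in its input, against 437 and 663 RPKM in oma-1ts-gfp RIP and 223 and 209 RPKM in its input. *mom-2* was thus enriched in both strains, by 3.75 in fzy-1;oma-1ts-gfp and 1.31 in oma-1ts-gfp, and by 3.41 in oma-1-gfp. The change was 2.44 ± 0.56 (standard error, limma adjusted p = 0.0274). Its call was lost without any of the oma-1ts-gfp libraries, without fzy-1;oma-1ts-gfp input replicate 2 and without its RIP replicate 2, with changes between 1.92 and 2.95 over the 8 fits. *ets-4*, an ETS-type transcription factor gene, rose by 1.66 (limma adjusted p = 0.0478) and kept its call in 1 of 8 fits, with RIP values of 4.13 and 8.64 RPKM in fzy-1;oma-1ts-gfp against 1.26 and 1.39 RPKM in oma-1ts-gfp.

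Going the other way was *meg-1*, which encodes a disordered protein of P granules. Its RIP level was 52.6 and 52.2 RPKM in fzy-1;oma-1ts-gfp, against 164 and 188 RPKM in oma-1ts-gfp, and its input level was 66.7 and 42.8 RPKM against 68.1 and 71.2 RPKM. It was enriched by 1.32 in oma-1ts-gfp and had enrichments of -0.03 in fzy-1;oma-1ts-gfp and 0.26 in oma-1-gfp. The change of -1.35 ± 0.33 (standard error, limma adjusted p = 0.0322) kept its call in 2 of 8 fits, those without fzy-1;oma-1ts-gfp RIP replicate 1 or input replicate 2. The remaining lower member was *mei-1*, the katanin subunit of the meiotic spindle, named after its values were seen, with a change of -1.07. The counts of this list ran between 1 and 5 higher and between 0 and 2 lower when single libraries were left out.

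*zif-1*, the substrate adaptor of a ubiquitin ligase that removes CCCH proteins from somatic cells, did not pass. Its RIP level was 207 and 330.4 RPKM in fzy-1;oma-1ts-gfp, against 97.3 and 155 RPKM in oma-1ts-gfp, with 89.2 and 59.7 RPKM against 91.5 and 95.3 RPKM in input. RIP values did not overlap, and the change was 1.43 ± 0.44 (standard error, limma adjusted p = 0.0675). It passed when fzy-1;oma-1ts-gfp RIP replicate 1 was left out, with a replicate block and with a filter of 5 RPKM (limma adjusted p = 0.0295, 0.0415 and 0.0470).

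**Figure D2:**
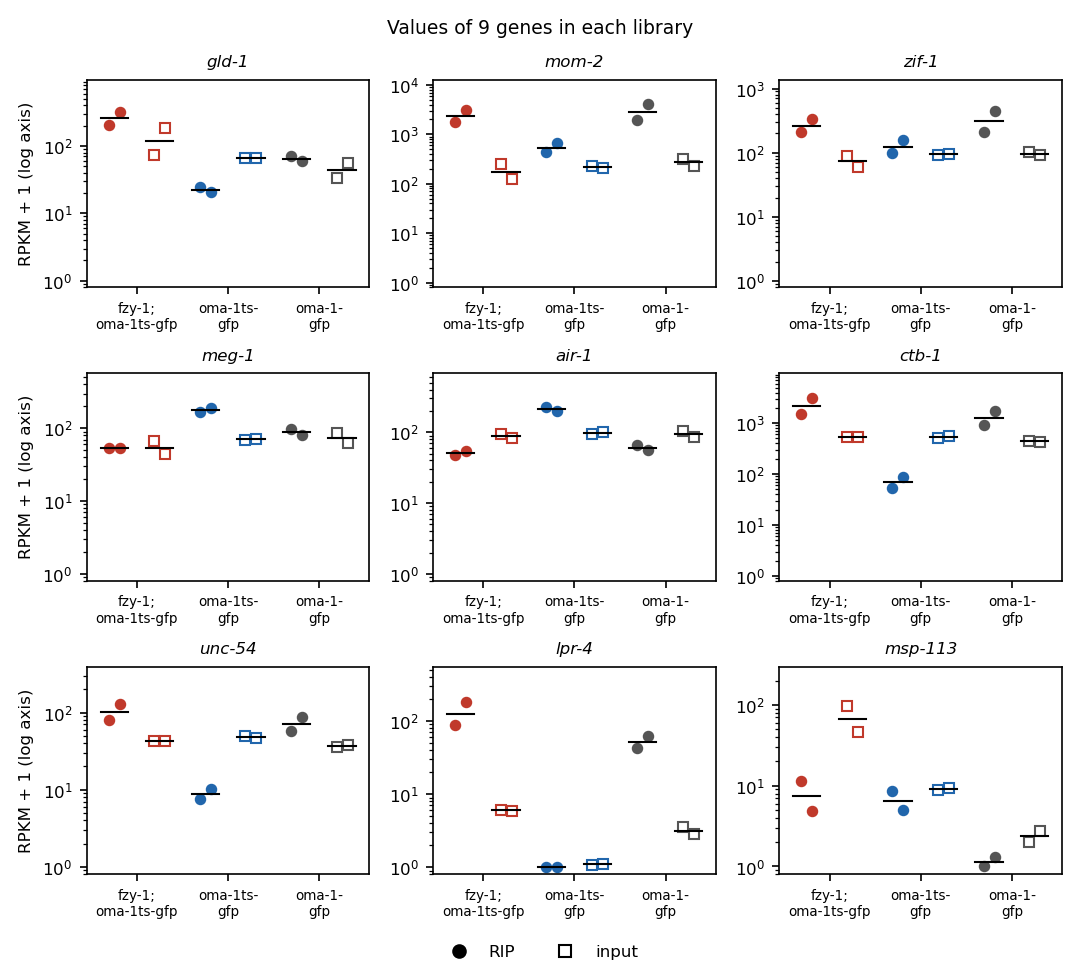
RPKM + 1 on a log axis for 9 genes. Filled circles are RIP libraries and open squares input libraries of fzy-1;oma-1ts-gfp (red), oma-1ts-gfp (blue) and oma-1-gfp (grey), and bars are means on the log scale of 2 libraries. In the panels of *gld-1*, *ctb-1*, *unc-54* and *lpr-4* both oma-1ts-gfp RIP values lie below both of fzy-1;oma-1ts-gfp by more than the inputs differ, in those of *meg-1* and *air-1* they lie above, and for *msp-113* the inputs separate while the RIP values overlap.

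Among the cell fate determinants and translational regulators that the study follows, *gld-1* changed the most. GLD-1 is the KH domain protein that represses maternal mRNAs in the medial germline. Its mRNA had 207 and 316 RPKM in fzy-1;oma-1ts-gfp RIP and 73.0 and 184 RPKM in its input, against 23.2 and 20.0 RPKM in oma-1ts-gfp RIP and 65.5 and 65.3 RPKM in its input. It was thus recovered above input in one strain (enrichment 1.14) and below it in the other (-1.56). The change was 2.69 ± 0.52 (standard error, limma adjusted p = 0.0135), between 2.03 and 3.35 over the fits without 1 library, and its call was lost without any 1 of the 4 oma-1ts-gfp libraries.

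None of *nos-2*, *pie-1*, *pos-1*, *mex-1*, *mex-3*, *mex-5*, *meg-2*, *skn-1*, *taf-4*, *pgl-1* and *cdk-1* passed limma. Of the 15 genes the study follows that were not called, 7 had an unadjusted p under 0.05. Apart from *zif-1*, the lowest adjusted p was that of *mex-3*, a KH domain repressor of the early embryo, with a change of -1.03 ± 0.33 (standard error, limma adjusted p = 0.0791). The changes were -1.15 for *meg-2*, -0.77 for *mex-5*, -0.75 for *mex-1* and 0.81 for *taf-4*, and those of the other 6 lay between -0.34 for *skn-1* and 0.24 for *pos-1*. Some calls appeared under other settings. *mex-3* passed with the replicate block, after quantile normalization and after both rescalings, *meg-2* with the replicate block and without fzy-1;oma-1ts-gfp RIP replicate 1, *mex-5* after quantile normalization and *taf-4* without that RIP library. *pos-1*, a CCCH determinant of the germ lineage, was abundant and even across the libraries, at 1421 and 1182 RPKM in fzy-1;oma-1ts-gfp RIP and 1441 and 968 RPKM in its input, against 1100 and 1297 RPKM in oma-1ts-gfp RIP and 1298 and 1267 RPKM in its input. The mRNA of *oma-1* itself was enriched in both strains, by 1.77 in fzy-1;oma-1ts-gfp and 0.95 in oma-1ts-gfp, and its change of 0.82 did not pass (limma adjusted p = 0.137). *oma-2*, its paralog, had a change of 0.73, and *fzy-1* one of -0.37. As P240L and D433N are amino acid changes, mRNA levels say nothing on whether a library carries them.

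In the list of OMA proteins and factors of their turnover, 1 of 13 members was higher (7.69%, against 5.79% of all genes tested). This was *zer-1*, a substrate receptor of CUL-2 ubiquitin ligases, at 130.2 and 126 RPKM in fzy-1;oma-1ts-gfp RIP against 21.6 and 32.0 RPKM in oma-1ts-gfp RIP, with inputs of 35.8 and 32.2 RPKM against 23.9 and 22.8 RPKM. Its change of 1.72 (limma adjusted p = 0.00909) kept its call in 6 of 8 fits, not without oma-1ts-gfp input replicate 1 or 2. Of 10 CCCH regulators only *moe-3*, a close relative of OMA-1, was higher (10%). It had 28.2 and 24.6 RPKM in fzy-1;oma-1ts-gfp RIP, against 1.92 and 3.46 RPKM in oma-1ts-gfp RIP, over inputs between 2.46 and 3.33 RPKM in both strains. The change of 2.75 (limma adjusted p = 0.00318) kept its call in all 8 fits. Related zinc finger genes may share reads, which the counting could divide among them.

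Few factors that act on mRNA were called, beside 5.79% higher and 3.29% lower of all genes tested. Of 28 germline translational regulators 2 were higher (7.14%), *gld-1* and *cgh-1*. Of 17 deadenylation, decapping and mRNP factors 2 were higher and 2 lower (11.8% each). *cgh-1*, the DDX6-type RNA helicase of germline granules, rose by 1.93 (limma adjusted p = 0.0202, 4 of 8 fits), with 173 and 129.6 RPKM in fzy-1;oma-1ts-gfp RIP against 9.50 and 8.25 RPKM in oma-1ts-gfp RIP. Its input was also higher, 183 and 354 RPKM against 61.0 and 65.0 RPKM, so that it lay below input in both strains. *pab-1*, the cytoplasmic poly(A)-binding protein, showed the same arrangement with a change of 1.48 and kept its call in 2 of 8 fits. The decapping factor *dcap-1* fell by 1.62 (limma adjusted p = 0.00613) and kept its call in 7 of 8 fits, not without oma-1ts-gfp input replicate 2. It had 15.5 and 18.8 RPKM in fzy-1;oma-1ts-gfp RIP, against 48.7 and 47.2 RPKM in oma-1ts-gfp RIP, over inputs of 40.7 and 39.5 RPKM against 35.6 and 34.7 RPKM. *edc-3*, an enhancer of decapping, fell by 1.10 and kept its call in 2 of 8 fits. Of 14 Argonautes 1 was higher (7.14%), *wago-4*, by 2.00, and it kept its call in 4 of 8 fits. Of 40 translation initiation and elongation factors 3 were higher (7.5%), none of them in more than 4 of 8 fits. They were the cap-binding proteins *ife-5* (1.42) and *ife-1* (1.24) and *eif-2A* (1.36). Of 16 P granule components only *meg-1* was called (6.25%, lower).

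Few cell cycle genes were called. Of 18 cyclins and cell cycle kinases tested 2 were lower (11.1%) and none higher, against 3.29% and 5.79% of all genes tested. *air-1*, the Aurora A kinase of centrosomes and spindles, fell the most of these 18. It had 47.2 and 53.8 RPKM in fzy-1;oma-1ts-gfp RIP and 94.1 and 83.0 RPKM in its input, against 224 and 199 RPKM in oma-1ts-gfp RIP and 94.0 and 99.0 RPKM in its input. The inputs overlapped, and *air-1* lay above input only in oma-1ts-gfp, with enrichments of -0.80 in fzy-1;oma-1ts-gfp, 1.12 in oma-1ts-gfp and -0.64 in oma-1-gfp. The change of -1.92 ± 0.28 (standard error, limma adjusted p = 0.00406) kept its call in all 8 fits. *cki-2*, a cyclin-dependent kinase inhibitor of the same list (-1.20), and *san-1*, a spindle checkpoint gene that was the 1 lower member of 13 for cohesion and checkpoint (-1.24), each kept their call in 1 of 8 fits. No member of 13 APC/C subunits and activators (median change -0.42), of 13 replication licensing factors (-0.42), of 16 synaptonemal complex and meiotic axis genes (-0.19) or of 13 eggshell and oocyte surface genes (0.04) passed limma at the adjusted threshold. At an unadjusted p under 0.05 there were 2, 4, 4 and 5 genes in these lists in the same order. Lists of this size would hold few or no calls at the shares of all genes tested, so the absence of calls says little.

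Of 21 embryonic fate and signalling genes 2 were higher (9.52%, against 5.79% of all genes tested). Both were of the Wnt pathway, *mom-2* and its frizzled-type receptor *mom-5*. *mom-5* had 23.0 and 28.7 RPKM in fzy-1;oma-1ts-gfp RIP and 17.8 and 27.4 RPKM in its input, against 0.207 and 1.26 RPKM in oma-1ts-gfp RIP and 5.96 and 7.42 RPKM in its input. Its change of 2.42 (limma adjusted p = 0.0118) kept its call in 6 of 8 fits, not without oma-1ts-gfp input replicate 2 or fzy-1;oma-1ts-gfp input replicate 1. Of 15 chromatin regulators 2 were higher (13.3%). They were *mes-6*, a subunit of the PRC2 histone methyltransferase (1.60, 6 of 8 fits), and *hpl-1*, a heterochromatin protein (1.37, 1 of 8 fits).

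The largest increases of single genes were led by C07A12.2 (WBGene00015560, chromosome X, 4544843 to 4545733 in WBcel235), a gene without a named function in the sources used here. It had 38.3 and 104 RPKM in fzy-1;oma-1ts-gfp RIP and 2.31 and 2.30 RPKM in its input, against 0.931 and 0.840 RPKM in oma-1ts-gfp RIP and 2.20 and 2.48 RPKM in its input. Input was level across the strains, and the change was 5.11 ± 0.54 (standard error, limma adjusted p = 0.000823). In oma-1-gfp the gene was enriched by 3.25. C18D11.3 (chromosome III, 11823448 to 11824975) had 211 and 230.5 RPKM in fzy-1;oma-1ts-gfp RIP, against 2.73 and 3.75 RPKM in oma-1ts-gfp RIP, with inputs of 91.7 and 81.8 RPKM against 45.2 and 40.1 RPKM. Its change was 4.71 (limma adjusted p = 0.000104). T10B10.4, F21C10.11 and T08D2.6 rose by 4.35, 3.84 and 3.80 and kept their calls in all 8 fits, as did the genes above.

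Among the 12 largest increases were also *lpr-4*, *wrt-1*, F58H1.2 and *act-4*. *lpr-4*, which encodes a lipocalin-related secreted protein (chromosome X, 11065126 to 11066811), had 86.6 and 182 RPKM in fzy-1;oma-1ts-gfp RIP and 5.09 and 4.93 RPKM in its input. In oma-1ts-gfp it was listed at 0 in both RIP libraries and at 0.0646 and 0.121 RPKM in input, so that both fractions separated the strains (limma adjusted p = 0.00062). *wrt-1*, a hedgehog-related gene, had 30.3 and 33.8 RPKM in fzy-1;oma-1ts-gfp RIP, against 0 and 0.108 RPKM in oma-1ts-gfp RIP, with inputs of 1.38 and 1.53 RPKM against 0.226 and 0.582 RPKM (limma adjusted p = 0.000378). F58H1.2 was likewise listed at 0 in both oma-1ts-gfp RIP libraries and had 30.3 and 22.0 RPKM in fzy-1;oma-1ts-gfp RIP. *lpr-4*, *wrt-1* and F58H1.2 lay under 1 RPKM in every oma-1ts-gfp library and passed the filter through fzy-1;oma-1ts-gfp only. Their enrichment in oma-1ts-gfp therefore rests largely on the added 1 RPKM. Of the 666 higher genes, 33 (4.95%) were listed at 0 in both oma-1ts-gfp RIP libraries, as were 333 of all 11503 genes tested (2.89%).

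*act-4*, a muscle actin gene (chromosome X, 4960621 to 4964413), was abundant in RIP of fzy-1;oma-1ts-gfp. It had 2524 and 3209 RPKM in fzy-1;oma-1ts-gfp RIP and 725 and 561 RPKM in its input, against 123 and 147 RPKM in oma-1ts-gfp RIP and 445 and 428 RPKM in its input. The change of 3.85 ± 0.38 (standard error, limma adjusted p = 0.000603) was kept in all 8 fits, although reads of the near-identical actin genes may have been split in the counting. *unc-54*, the major muscle myosin heavy chain, had 78.1 and 129 RPKM in fzy-1;oma-1ts-gfp RIP, against 6.47 and 9.07 RPKM in oma-1ts-gfp RIP, over inputs of 41.4 and 41.7 RPKM against 49.1 and 45.1 RPKM. Its change was 3.72 (limma adjusted p = 0.000603). The troponin T genes *tnt-2* (2.21) and *mup-2* (2.09) were also higher in all 8 fits.

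Over the list of 17 muscle markers, 5 were higher and 1 lower, with a median change of 0.44 and between 4 and 5 higher genes when single libraries were left out. The higher genes were 29.4% of these markers and the lower one 5.88%, where all genes tested gave 5.79% and 3.29%. Named after their values were seen, the fifth higher marker was *pat-10* (1.36), a troponin C, and the lower one *unc-27* (-1.67), a troponin I. Summed over the muscle markers, RPKM were 3214 and 3847 in fzy-1;oma-1ts-gfp RIP and 1848 and 1732 in its input, against 1325 and 1100 in oma-1ts-gfp RIP and 1829 and 1772 in its input. These sums rest on *act-4*. Without it, a sum chosen after its values were seen, the other markers came to 690.3 and 638 RPKM in fzy-1;oma-1ts-gfp RIP and 1123 and 1171 in its input, against 1203 and 952 in oma-1ts-gfp RIP and 1384 and 1344 in its input, which is lower in fzy-1;oma-1ts-gfp in both fractions.

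**Figure D3:**
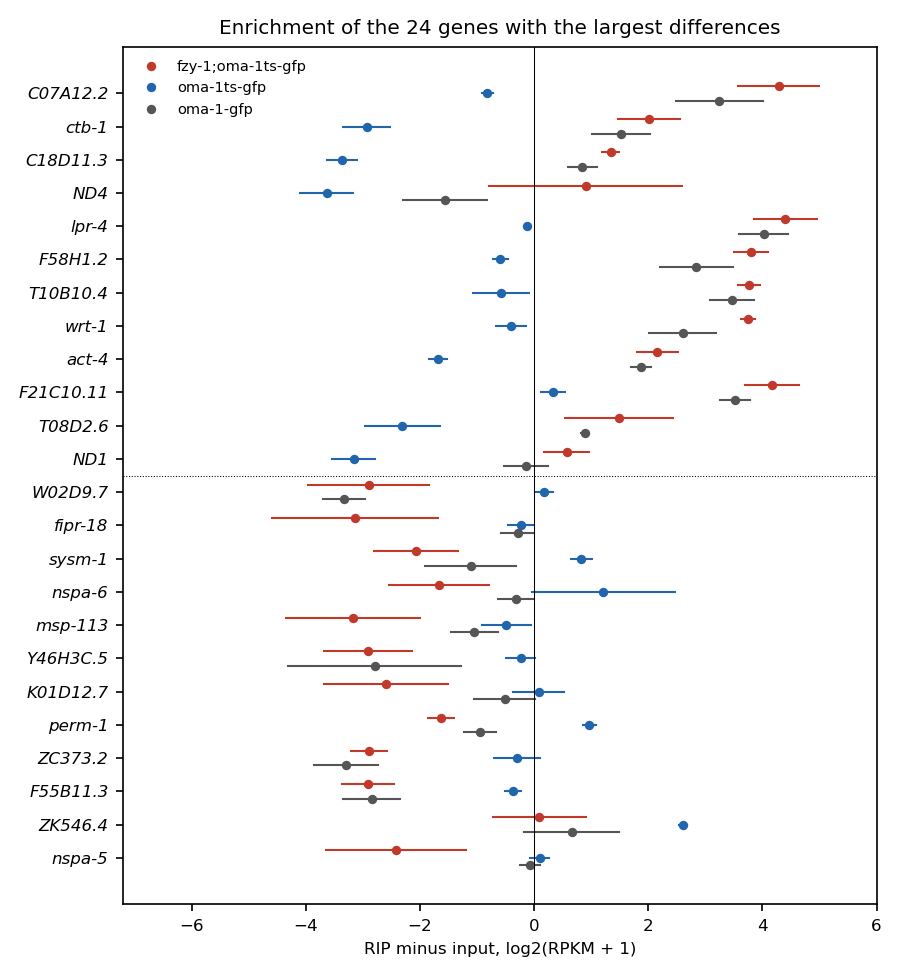
Enrichment (RIP minus input on log2(RPKM + 1)) of the 12 genes with the largest increase (upper rows) and the 12 with the largest decrease (lower rows) by the naming rule. Points are means and lines run over all pairings of the 2 RIP with the 2 input libraries, for fzy-1;oma-1ts-gfp (red), oma-1ts-gfp (blue) and oma-1-gfp (grey), the last of which did not enter the choice of genes. In each row red and blue do not overlap, and grey lies nearer to red than to blue in most of the upper rows.

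The mitochondria-encoded mRNAs, which are made and kept inside the organelle, had the largest median change of the lists. Of 12 such genes 4 were higher (33.3%) and none was lower, with a median of 2.44. All genes tested gave 5.79% higher and 3.29% lower. *ctb-1*, cytochrome b of complex III (mitochondrial DNA, 4504 to 5621), had 1484 and 3148 RPKM in fzy-1;oma-1ts-gfp RIP and 537 and 537 RPKM in its input, against 53.1 and 86.6 RPKM in oma-1ts-gfp RIP and 502 and 548 RPKM in its input. The inputs overlapped, and the change was 4.94 ± 0.51 (standard error, limma adjusted p = 0.000815). *ND1*, a subunit of complex I, rose by 3.73 and like *ctb-1* kept its call in all 8 fits. *ND4*, another complex I subunit (4.54), kept its call in 4 of 8 and *ATP6*, of the ATP synthase (2.75), in 2 of 8. fzy-1;oma-1ts-gfp RIP replicates differed, with summed RPKM of 3371 and 10696 over the 12 genes, against 1047 and 1165 in oma-1ts-gfp RIP. Inputs summed to 4712 and 4898 RPKM in fzy-1;oma-1ts-gfp and 5641 and 6223 RPKM in oma-1ts-gfp. Between 2 and 10 of the 12 were called when single libraries were left out, and the median ran between 1.27 and 3.54. Of 67 nuclear genes for oxidative phosphorylation, 1 was lower, *lpd-5* of complex I (-1.67, 5 of 8 fits), and none was higher.

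Vitellogenin mRNAs are made in the intestine for the yolk of oocytes. Of the 7 genes of this list 5 were higher (71.4%, against 5.79% of all genes tested), with a median of 1.35. The list's median enrichment lay below input in both strains, at -0.98 in fzy-1;oma-1ts-gfp and -2.69 in oma-1ts-gfp. *vit-3* had 386 and 388 RPKM in fzy-1;oma-1ts-gfp RIP and 395 and 279 RPKM in its input, against 97.0 and 106 RPKM in oma-1ts-gfp RIP and 264 and 252 RPKM in its input. Its change was 1.56 ± 0.33 (standard error, limma adjusted p = 0.0194), and those of *vit-1*, *vit-6*, *vit-4* and *vit-5* were 1.94, 1.94, 1.35 and 1.24. Each of the 5 calls was lost in at least 4 of the 8 fits, and none of the 5 was called without oma-1ts-gfp input replicate 1, input replicate 2 or RIP replicate 1, while the median stayed between 1.26 and 1.50. These genes are similar in sequence, and their reads may have been split.

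Of 16 intestine markers 3 were higher, *vit-5*, *vit-6* and the GATA factor *elt-2* (1.47, 2 of 8 fits), with a median of 0.34. The higher genes were 18.8% of these markers, where all genes tested gave 5.79% higher and 3.29% lower. Summed RPKM of the intestine markers were 775 and 632 in fzy-1;oma-1ts-gfp RIP and 1905 and 2333 in its input, against 383 and 420.2 in oma-1ts-gfp RIP and 1487 and 1715 in its input. Of 11 hypodermis markers none passed limma (5 at an unadjusted p under 0.05, median 0.54), with sums of 1241 and 1093 RPKM in fzy-1;oma-1ts-gfp RIP against 682 and 870.1 RPKM in oma-1ts-gfp RIP. *rab-3*, the synaptic vesicle GTPase, was the 1 higher gene of 10 neuron markers (1.54, 3 of 8 fits). Of 17 markers of oocytes and the distal germline only *gld-1* was called (median -0.07), and their sums in input were 3605 and 2743 RPKM in fzy-1;oma-1ts-gfp and 3192 and 3234 RPKM in oma-1ts-gfp. No member of 7 sheath and spermatheca markers was called by limma (0 at an unadjusted p under 0.05), and *elt-2* was the only one of 16 early zygotic markers.

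Histone genes were higher for 11 of 67 tested (16.4%) and lower for 1 (1.49%), against 5.79% and 3.29% of all genes tested. The histone median of 0.71 lay between 0.50 and 0.83 without single libraries. *hil-5*, a linker histone gene, had 1632 and 2207 RPKM in fzy-1;oma-1ts-gfp RIP and 439 and 364 RPKM in its input, against 258 and 321 RPKM in oma-1ts-gfp RIP and 434 and 387 RPKM in its input. The change was 2.75 (limma adjusted p = 0.00356) and the gene was enriched by 2.23 in oma-1-gfp. *his-47* (2.99), *his-57* (2.81) and *his-65* (2.48) were also higher in all 8 fits, and the lower gene, named after its values were seen, was *his-70* (-1.94). The count of higher histone genes was 5 to 13 without single libraries. Histone copies are near identical, so single members are uncertain.

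Cuticle collagens, the structural proteins of the worm's outer layer, were higher for 10 of 104 (9.62%, against 5.79% of all genes tested). None was lower and the median was 0.39. *dpy-2* had 38.2 and 39.9 RPKM in fzy-1;oma-1ts-gfp RIP, against 0.143 and 0.581 RPKM in oma-1ts-gfp RIP, and its input also differed, at 3.07 and 4.17 RPKM against 0.203 and 0.380 RPKM. With every oma-1ts-gfp value under 1 RPKM, its enrichment there rests largely on the added 1 RPKM. In the abundant *col-179* and *col-101* the inputs differed in the other direction. *col-179* had 811 and 878 RPKM in fzy-1;oma-1ts-gfp RIP and 226 and 191 RPKM in its input, against 182 and 258 RPKM in oma-1ts-gfp RIP and 414 and 425 RPKM in its input. The changes were 3.06 for *dpy-2*, 2.97 for *col-179*, 2.37 for *col-101* and 3.40 for *col-149*, each kept in all 8 fits (limma adjusted p between 0.00156 and 0.00522). Leaving out single libraries gave between 5 and 12 higher collagens.

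Families of substrate adaptors of ubiquitin ligases were called at or below the background of 5.79% higher and 3.29% lower. Of 69 genes with MATH or BTB domains, 4 were higher (5.80%) and none lower, with a median of -0.02. *bath-30* (chromosome II, 3345218 to 3346378) had 237 and 271 RPKM in fzy-1;oma-1ts-gfp RIP and 47.6 and 36.9 RPKM in its input, against 27.1 and 31.4 RPKM in oma-1ts-gfp RIP and 44.9 and 40.6 RPKM in its input. Its change of 3.11 ± 0.29 (standard error, limma adjusted p = 0.000566) and those of its neighbours *bath-27* (2.38) and *bath-29* (2.07) were kept in all 8 fits, and the 3 genes were enriched by 2.68, 2.30 and 2.31 in oma-1-gfp. They are related in sequence, so reads may have been split. Of 163 F-box genes 7 were higher (4.29%) and 2 lower (1.23%), with a median of 0.00. *fbxb-103* (2.89) and *fbxc-33* (2.40) rose and *fbxa-203* (-2.25) fell in all 8 fits. *fbxa-203* had 3.39 and 5.38 RPKM in fzy-1;oma-1ts-gfp RIP against 20.1 and 18 RPKM in oma-1ts-gfp RIP, over inputs of 3.64 and 2.93 RPKM against 2.59 and 2.22 RPKM. Of 33 proteasome subunits 1 was higher, the ATPase *rpt-4* (1.71, 5 of 8 fits), and 3 were lower, among them the core subunits *pas-5* (-1.56) and *pas-3* (-1.47), which kept their calls in 2 and 3 of 8.

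Among the 12 largest decreases were W02D9.7, Y46H3C.5, F55B11.3 and ZC373.2, which have no named function in the sources used here and differed by more in RIP than in input. W02D9.7 (WBGene00012213, chromosome I, 12559365 to 12559658) had 11.2 and 5.23 RPKM in fzy-1;oma-1ts-gfp RIP and 95.6 and 42.9 RPKM in its input, against 132 and 123 RPKM in oma-1ts-gfp RIP and 122 and 105 RPKM in its input. It was thus depleted in fzy-1;oma-1ts-gfp and near its input level in oma-1ts-gfp RIP, with a change of -3.08 ± 0.53 (standard error, limma adjusted p = 0.00871) that was lost without oma-1ts-gfp RIP replicate 1. Y46H3C.5 (-2.68), ZC373.2 (-2.60) and F55B11.3 (-2.54) had the same arrangement and kept their calls in all 8 fits. In oma-1-gfp the enrichments of these 4 genes lay between -3.33 and -2.79, as low as in fzy-1;oma-1ts-gfp.

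*perm-1*, a gene needed for the permeability barrier of the eggshell, had 10.4 and 7.56 RPKM in fzy-1;oma-1ts-gfp RIP and 30 and 29.2 RPKM in its input, against 52.7 and 45.4 RPKM in oma-1ts-gfp RIP and 24.8 and 24.3 RPKM in its input. Its enrichment was -1.63 in fzy-1;oma-1ts-gfp, 0.97 in oma-1ts-gfp and -0.94 in oma-1-gfp, so oma-1ts-gfp stood apart. The change was -2.60 ± 0.29 (standard error, limma adjusted p = 0.00108). ZK546.4 differed in that it was recovered far above input in oma-1ts-gfp only. It had 14.5 and 6.40 RPKM in fzy-1;oma-1ts-gfp RIP and 11.1 and 7.32 RPKM in its input, against 62.5 and 66.7 RPKM in oma-1ts-gfp RIP and 9.52 and 9.93 RPKM in its input, a change of -2.52 that was lost without oma-1ts-gfp RIP replicate 1. *sysm-1* fell by 2.89 at lower levels, with 2.42 and 0.441 RPKM in fzy-1;oma-1ts-gfp RIP against 11.8 and 10.6 RPKM in oma-1ts-gfp RIP.

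Of 68 mitochondrial ribosomal protein genes, which are nuclear genes translated in the cytoplasm, 5 were lower (7.35%) and 1 higher (1.47%). All genes tested gave 3.29% and 5.79%, and the median of the list was -0.31. *mrpl-9* had 13.3 and 10.7 RPKM in fzy-1;oma-1ts-gfp RIP and 23.6 and 24.6 RPKM in its input, against 43.7 and 46.8 RPKM in oma-1ts-gfp RIP and 24.7 and 23.9 RPKM in its input. Its change of -1.82 ± 0.27 (standard error, limma adjusted p = 0.00443) was kept in all 8 fits, while the count of lower genes was 1 to 6 without single libraries. The higher one, *mrpl-39* (1.27), was named after its values were seen. Of 79 cytosolic ribosomal proteins 3 were higher (3.80%), led by *rps-17* (1.86, 7 of 8 fits, not without oma-1ts-gfp input replicate 1), with a median of -0.05. These mRNAs were strongly depleted in both strains, with median enrichments of -2.47 in fzy-1;oma-1ts-gfp and -2.49 in oma-1ts-gfp.

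Sperm genes were called lower together with higher inputs. Of 29 major sperm protein (MSP) genes tested 7 were lower (24.1%, against 3.29% of all genes tested) and none higher. The median change of these MSP genes was -1.74. Their summed RPKM were 358 and 166 in fzy-1;oma-1ts-gfp RIP and 2435 and 1159 in its input, against 111 and 113 in oma-1ts-gfp RIP and 249 and 241 in its input. The median input difference was 2.56 and the median RIP difference 0.98, so MSP RNA was higher in both fractions of fzy-1;oma-1ts-gfp and by more in input. *msp-113* had 10.5 and 3.85 RPKM in fzy-1;oma-1ts-gfp RIP and 97.2 and 44.7 RPKM in its input, against 7.48 and 3.94 RPKM in oma-1ts-gfp RIP and 7.86 and 8.29 RPKM in its input. Its change of -2.68 (limma adjusted p = 0.0293) kept its call in 3 of 8 fits and that of *msp-79* (-2.50) in 2 of 8, and the count of lower MSP genes ran between 0 and 19. The part that sperm content has in the other changes was not tested.

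Small sperm-specific proteins were lower for 4 of 26 (15.4%, against 3.29% of all genes tested), with a median change of -0.76. Inputs of this list were again higher (median input difference 2.16). *ssp-10* fell by 1.94 and kept its call in 4 of 8 fits. *nspa-6* (-2.88), *nspa-5* (-2.51) and K01D12.7 (-2.67) belonged to the 12 largest decreases and had inputs at least 11.3 RPKM in fzy-1;oma-1ts-gfp, against at most 5.64 RPKM in oma-1ts-gfp. Each kept its call in 2 of 8 fits. *fipr-18*, of a family of small peptides, was listed at 0 in both oma-1ts-gfp RIP libraries and moved in the same way (limma adjusted p = 0.0377, 2 of 8 fits). Its inputs were 39.2 and 16.3 RPKM in fzy-1;oma-1ts-gfp against 0.380 and 0 RPKM in oma-1ts-gfp, where its enrichment rests on the added 1 RPKM. With a pseudocount of 0.1 the calls of *fipr-18*, *nspa-6*, *nspa-5* and K01D12.7 were lost. Those of *fipr-18* and *nspa-6* were also lost after both rescalings. Sperm genes other than MSP had no call by limma among 11 tested (2 at an unadjusted p under 0.05, median 0.13), and of 11 sperm markers 1 was lower. Those markers summed to 551 and 264 RPKM in the inputs of fzy-1;oma-1ts-gfp, against 72.2 and 74.0 RPKM in those of oma-1ts-gfp.

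Nematode-specific peptide genes split by family, 3 of 27 being higher and 3 lower (11.1% each, against 5.79% and 3.29% of all genes tested). *nspc-2* had 8.60 and 11.5 RPKM in fzy-1;oma-1ts-gfp RIP and 22.6 and 18.1 RPKM in its input, against 0.931 and 1.40 RPKM in oma-1ts-gfp RIP and 35.5 and 31.1 RPKM in its input. *nspc-2* and *nspc-6* stayed below input in both strains, by less in fzy-1;oma-1ts-gfp, with changes of 3.04 and 2.79 (limma adjusted p = 0.000955 and 0.00156) kept in all 8 fits. The 3 lower genes were of the *nspa* family.

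**Figure D4:**
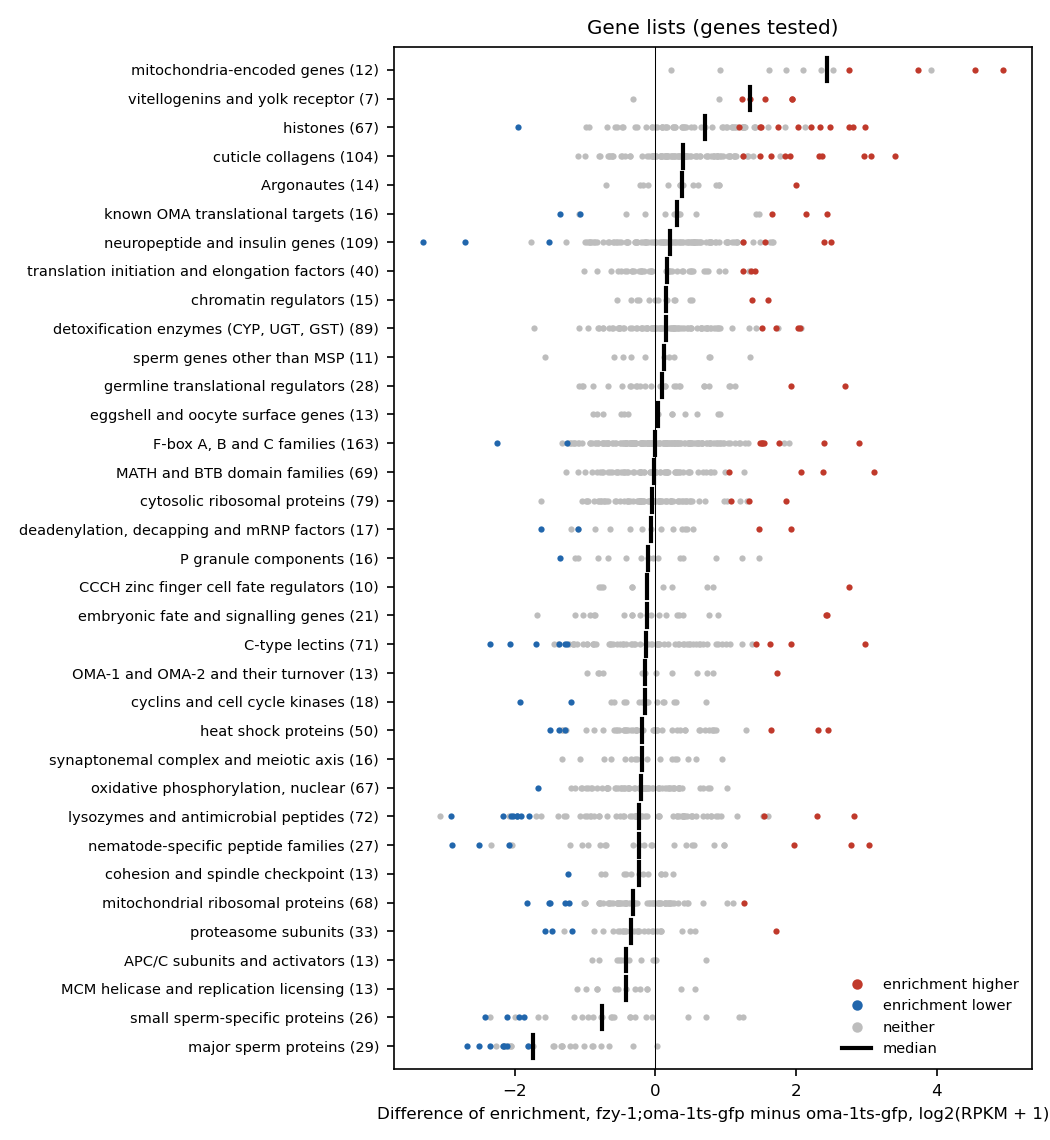
Change of enrichment (fzy-1;oma-1ts-gfp minus oma-1ts-gfp, log2 scale) of the members of each gene list, with the number tested in parentheses. Each point is a gene, red when called higher, blue when called lower and grey otherwise, and black bars are list medians. Mitochondria-encoded genes (median 2.44) and vitellogenins (1.35) lie at the top and major sperm proteins (-1.74) at the bottom, while most lists have medians near the -0.03 of all genes tested.

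Calls in families of secreted and defence proteins are given beside the 5.79% higher and 3.29% lower of all genes tested. Of 71 C-type lectins 4 were higher (5.63%) and 6 lower (8.45%), with a median of -0.13. *clec-57* rose by 2.98 with 27.1 and 18.3 RPKM in fzy-1;oma-1ts-gfp RIP against 0.509 and 1.64 RPKM in oma-1ts-gfp RIP, whereas *clec-197* was called lower (-2.35, 7 of 8 fits, not with a pseudocount of 0.1) with RIP values of at most 0.419 RPKM in both strains and inputs of 7.42 and 4.68 RPKM in fzy-1;oma-1ts-gfp against 0 and 0.442 RPKM in oma-1ts-gfp. Of 72 lysozyme and antimicrobial peptide genes 3 were higher (4.17%) and 8 lower (11.1%), with a median of -0.24. The saposin-like *spp-2* rose by 2.82 (limma adjusted p = 0.00527), with 214 and 366 RPKM in fzy-1;oma-1ts-gfp RIP against 20.8 and 24.4 RPKM in oma-1ts-gfp RIP, and *fipr-21* rose by 2.29, both in all 8 fits. *cnc-4*, a caenacin peptide gene, fell by 2.16 and kept its call in 4 of 8.

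Of 89 detoxification enzymes 4 were higher (4.49%, against 5.79% of all genes tested), with a median of 0.15. Among them were the glucuronosyltransferases *ugt-21* (2.05) and *ugt-3* (2.03), in which the input differed by more than the RIP. Both calls were lost with a pseudocount of 0.1 and after both rescalings. *ugt-3* had 0.150 and 0.10 RPKM in fzy-1;oma-1ts-gfp RIP and 0.736 and 0.939 RPKM in its input, against 5.29 and 4.98 RPKM in oma-1ts-gfp RIP and 37.4 and 42.6 RPKM in its input. Its level was thus under 1 RPKM in both fractions of fzy-1;oma-1ts-gfp, and its change was 0.88 with the pseudocount of 0.1 (limma adjusted p = 0.274). It was listed at 0 in all 4 oma-1-gfp libraries. Of 50 heat shock and J-domain genes 3 were higher (6%) and 3 lower (6%, against 3.29% of all genes tested), with a median of -0.19. The co-chaperone *dnj-8* had 215 and 252 RPKM in fzy-1;oma-1ts-gfp RIP and 18.4 and 16.6 RPKM in its input, against 31.5 and 42.9 RPKM in oma-1ts-gfp RIP and 14.9 and 12.8 RPKM in its input. *dnj-8* (2.31) and *dnj-26* (2.45) were higher in all 8 fits and enriched in oma-1-gfp by 3.53 and 2.94.

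Of 109 neuropeptide and insulin genes 4 were higher (3.67%) and 3 lower (2.75%), against 5.79% and 3.29% of all genes tested, with a median of 0.21. The insulin-like genes *ins-31* and *ins-19* are neighbours on chromosome II. *ins-31* had the lowest change of all genes tested, -3.30 (limma adjusted p = 0.00113), and fell below the level that the naming rule for the largest decreases asks for. Its RIP values were between 0.140 and 0.379 RPKM in both strains, and its input was 11.9 and 8.02 RPKM in fzy-1;oma-1ts-gfp against 0 and 0.124 RPKM in oma-1ts-gfp. *ins-19* fell by 2.71 mainly in RIP, with 0.870 and 0.436 RPKM in fzy-1;oma-1ts-gfp against 5.95 and 4.44 RPKM in oma-1ts-gfp. The neuropeptide gene *nlp-101* rose by 2.49, with RIP values of 15.5 and 10.6 RPKM in fzy-1;oma-1ts-gfp against 1.02 and 0.734 RPKM in oma-1ts-gfp.

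The called genes were compared with all genes tested for properties that the comparison did not use, and for their input level, which it did use. By the germline classes that the authors deposited with the values, oogenic genes made up 11.9% of the higher, 15.1% of the lower and 12% of all genes tested. Spermatogenic genes were 9.31% of the higher, 8.20% of the lower and 9.28% of all. Genes annotated there as germline-enriched were less frequent among the higher genes, at 26.9%, and were 36.8% of the lower genes and 34.7% of all, while soma-enriched genes were 29.9%, 20.6% and 24.7%. The X chromosome held 14.7% of the higher, 12.4% of the lower and 12.5% of all genes. In the WBcel235 annotation the median 3′ untranslated region was 180 bases long for the higher genes, 112 for the lower genes and 154 for all. The median exon length was 1284 bases for the higher, 1001 for the lower and 1288 for all genes. The median input level was 9.68 RPKM in fzy-1;oma-1ts-gfp for the higher genes and 16.5 for the lower genes, against 7.55 for all. These shares and medians are descriptions without a test.

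By enrichment within each strain, called with the same thresholds, 8.70% of all genes tested were enriched and 20.3% depleted in fzy-1;oma-1ts-gfp, and 5.29% and 18.0% in oma-1ts-gfp. Of the higher genes, 330 were enriched over input only in fzy-1;oma-1ts-gfp and 62 in both strains. A further 155 were depleted only in oma-1ts-gfp, 27 were enriched in fzy-1;oma-1ts-gfp and depleted in oma-1ts-gfp, 18 were depleted in both and 74 passed in neither. Of the 378 lower genes, 209 were depleted only in fzy-1;oma-1ts-gfp, 65 were enriched only in oma-1ts-gfp, 8 were depleted in both, 94 passed in neither and 2 had other patterns. *rnf-5* and *bath-30* are examples of the first kind, *unc-54* of those enriched in one strain and depleted in the other, and *air-1* of the genes enriched only in oma-1ts-gfp.

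The strain oma-1-gfp, whose libraries had no part in the comparison, was set beside these genes. In oma-1-gfp 885 genes were enriched (7.69%) and 1870 depleted (16.3%), called in the fit of all 12 libraries. The spread behind these calls thus includes the 8 libraries of the comparison. Of the 666 higher genes 350 were among the enriched (52.6%) and 37 among the depleted (5.56%). Of the 378 lower genes 4 were enriched (1.06%) and 107 depleted (28.3%). The share of the higher genes ran between 45.2% and 74.4% when single libraries were left out, and that of the lower genes between 23.1% and 39.0%. Put as a share of the other list, 350 of the 885 mRNAs enriched in oma-1-gfp (39.5%) were called higher and 4 lower. Of these 885 mRNAs, 748 (84.5%) were enriched in fzy-1;oma-1ts-gfp and 306 (34.6%) in oma-1ts-gfp, where the shares of all genes tested were 8.70% and 5.29%, with median enrichments of 1.66 in fzy-1;oma-1ts-gfp, 0.68 in oma-1ts-gfp and 1.63 in oma-1-gfp.

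**Figure D5:**
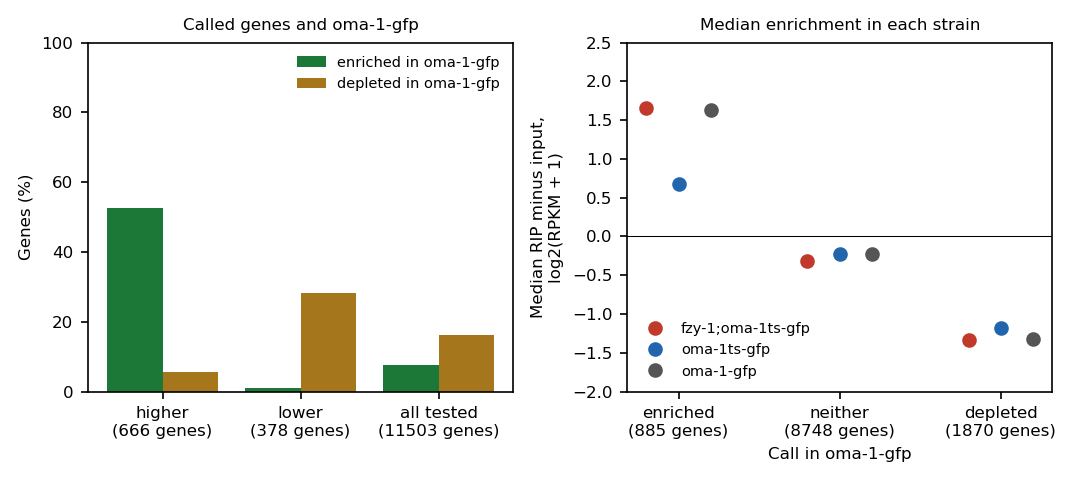
Left, the percentage of the higher, the lower and all tested genes that were enriched (green) or depleted (brown) in oma-1-gfp, with the axis starting at 0. Right, median enrichment on log2(RPKM + 1) in fzy-1;oma-1ts-gfp (red), oma-1ts-gfp (blue) and oma-1-gfp (grey) for genes enriched, neither or depleted in oma-1-gfp. Of the higher genes 52.6% were enriched in oma-1-gfp against 7.69% of all, and on the right the blue point of the enriched genes (0.68) lies below the red (1.66) and grey (1.63) points.

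The median enrichment of the 666 higher genes in oma-1-gfp was 1.09, beside medians of 1.39 in fzy-1;oma-1ts-gfp and -0.40 in oma-1ts-gfp that the choice of genes sets apart. For the 378 lower genes it was -0.59, beside -1.12 and 0.32 in the same order of strains. The enrichment in fzy-1;oma-1ts-gfp lay nearer to that in oma-1-gfp than the enrichment in oma-1ts-gfp did for 620 of the higher genes (93.1%), 293 of the lower genes (77.5%) and 68.3% of all genes tested. The sperm genes named above other than *nspa-6* and *his-70*, for which the inputs of fzy-1;oma-1ts-gfp were higher than those of both other strains, went the other way. Further exceptions among the named genes were *ND4*, with enrichments of 0.90 in fzy-1;oma-1ts-gfp, -3.64 in oma-1ts-gfp and -1.56 in oma-1-gfp, *clec-197*, *ins-31* and *fipr-18*, with at least -0.29 in oma-1-gfp against at most -2.54 in fzy-1;oma-1ts-gfp, and *clec-57*, which was enriched in fzy-1;oma-1ts-gfp (2.54) and stood at -0.44 in oma-1ts-gfp and 0.14 in oma-1-gfp.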

How the data were processed

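RIP-seq and input libraries of the strains fzy-1;oma-1ts-gfp and oma-1ts-gfp (2 of each) were compared, and the 4 libraries of oma-1-gfp did not enter that comparison. Per the submitters' processing notes, reads were processed with CASAVA 1.4, HISAT2 2.0.5 and HTSeq 0.6.0. The genome build and annotation were not given in the sources used here, so gene identifiers were looked up in the WBcel235 annotation for positions and lengths, and it holds 18553 of the 18887 genes. The authors deposited RPKM per gene multiplied by 1000, which was undone here. RPKM hold no read counts, so depth is known only as a ratio between libraries and gives no counting intervals. Left out were 40 other columns with values of single samples and the authors' columns of log2 ratios, p-values and false discovery rates of their own comparisons.

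The study used a count model. As the values are RPKM, limma 3.58.1 in R 4.3.3 was used on log2(RPKM + 1) with an intensity trend, in one fit of the 8 libraries with a mean for each group, and p-values were adjusted by the Benjamini-Hochberg method over the 11503 genes that reached 1 RPKM in 2 or more libraries. Genes were called at an adjusted p under 0.05 with a log2 difference over 1. The oma-1-gfp enrichment came from a fit of all 12 libraries. The script was tested on simulated data. Alternatives were other pseudocounts, filters, scalings and variance models, a replicate block and leaving out each library. Python 3.11.15 with pandas 2.3.3 and matplotlib 3.10.9 was used for the tables and plots.

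Named genes are, in each direction, the 12 called genes with the largest change among those with at least 10 RPKM in both libraries of a group and no overlap between the strains (461 higher and 282 lower genes qualified), the genes the study follows, and up to 4 called members of each list. Exceptions are stated as named after their values were seen. The members and lists were chosen with earlier results of these data known, and mitochondria-encoded genes were taken by chromosome in place of a symbol pattern once the files were read.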

Additional observations from a re-analysis of the deposited data

Results flagged for a closer look

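Each result given here is a difference between the strains in the same contrast, RIP against input, that was tested as an interaction with limma. Enrichment was higher in fzy-1;oma-1ts-gfp than in oma-1ts-gfp for 666 genes and lower for 378. On the log2 scale the change was 5.11 for C07A12.2, 4.94 for *ctb-1*, 4.71 for C18D11.3, 4.54 for *ND4*, 4.53 for *lpr-4*, 4.39 for F58H1.2, 4.35 for T10B10.4, 4.15 for *wrt-1*, 3.85 for *act-4*, 3.84 for F21C10.11, 3.80 for T08D2.6 and 3.73 for *ND1*. It was 3.72 for *unc-54*, 3.58 for *lpr-3*, 3.55 for *wrt-10*, 3.53 for *lpr-6*, 3.40 for *col-149*, 3.16 for *lpr-5*, 3.11 for *bath-30*, 3.06 for *dpy-2*, 3.04 for *nspc-2*, 2.99 for *his-47*, 2.98 for *clec-57* and 2.97 for *col-179*. Next came changes of 2.89 for *fbxb-103*, 2.82 for *spp-2*, 2.81 for *his-57*, 2.79 for *nspc-6*, 2.75 for *ATP6*, 2.75 for *hil-5*, 2.75 for *moe-3*, 2.69 for *gld-1*, 2.62 for *noah-1*, 2.49 for *nlp-101*, 2.48 for *his-65* and 2.45 for *dnj-26*. Smaller increases were 2.44 for *mom-2*, 2.42 for *mom-5*, 2.40 for *fbxc-33*, 2.38 for *bath-27*, 2.37 for *col-101*, 2.32 for *mlt-10*, 2.31 for *dnj-8*, 2.29 for *fipr-21*, 2.21 for *tnt-2*, 2.14 for *rnf-5*, 2.09 for *mup-2* and 2.07 for *bath-29*. Then followed increases of 2.05 for *ugt-21*, 2.03 for *ugt-3*, 2.00 for *wago-4*, 1.94 for *vit-6*, 1.94 for *vit-1*, 1.93 for *cgh-1*, 1.86 for *rps-17*, 1.72 for *zer-1*, 1.71 for *rpt-4*, 1.66 for *ets-4*, 1.60 for *mes-6* and 1.56 for *vit-3*. The smallest increases were 1.54 for *rab-3*, 1.48 for *pab-1*, 1.47 for *elt-2*, 1.42 for *ife-5*, 1.37 for *hpl-1*, 1.36 for *pat-10*, 1.36 for *eif-2A*, 1.35 for *vit-4*, 1.27 for *mrpl-39*, 1.24 for *ife-1* and 1.24 for *vit-5*.

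Among the lower genes the change was -3.30 for *ins-31*, -3.08 for W02D9.7, -2.90 for *fipr-18*, -2.89 for *sysm-1*, -2.88 for *nspa-6*, -2.71 for *ins-19*, -2.68 for *msp-113*, -2.68 for Y46H3C.5, -2.67 for K01D12.7, -2.60 for *perm-1* and -2.60 for ZC373.2. It was further -2.54 for F55B11.3, -2.52 for ZK546.4, -2.51 for *nspa-5*, -2.50 for *msp-79*, -2.35 for *clec-197*, -2.25 for *fbxa-203*, -2.16 for *cnc-4*, -1.94 for *his-70*, -1.94 for *ssp-10*, -1.92 for *air-1* and -1.82 for *mrpl-9*. The smallest decreases were -1.67 for *unc-27*, -1.67 for *lpd-5*, -1.62 for *dcap-1*, -1.56 for *pas-5*, -1.47 for *pas-3*, -1.35 for *meg-1*, -1.24 for *san-1*, -1.20 for *cki-2*, -1.10 for *edc-3* and -1.07 for *mei-1*. Among these genes the input differed by more than the RIP in *fipr-18*, *nspa-6*, *nspa-5*, *msp-113*, *msp-79*, *ssp-10*, K01D12.7, *his-70*, *clec-197*, *ins-31*, *ugt-3* and *ugt-21*. With 2 libraries per group, single libraries far from their group were not looked for.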

How the results depend on the processing

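The settings changed how many genes were called. Of the 112 called named genes, between 21 and 112 kept their call under the alternatives. None changed sign, but their enrichments did not overlap between the strains, so leaving out a library could not turn the sign. With a pseudocount of 5, 243 genes were lower and 65.4% of the higher genes were enriched in oma-1-gfp, and with 0.1, 34.1% of the lower genes were depleted there. Without the filter, 349 genes were higher and 163 lower, and 62.9% of the higher genes were enriched in oma-1-gfp. A test against a log2 difference of 1 itself left 55 and 3 genes, of which 83.6% and 33.3% were enriched and depleted in oma-1-gfp. Rescaling to equal library sums, with or without sperm and mitochondria-encoded genes, was chosen after seeing the data and gave 592 and 558 lower genes. The RIP difference was lower for 1670 and 1598 genes after these rescalings and for 1685 after median centring, and the input difference was higher for 525 and lower for 439 genes after median centring and for 458 and 400 after quantile normalization. Leaving out 1 library in turn gave 193 to 830 higher and 50 to 736 lower genes, with 45.2% to 74.4% and 23.1% to 39.0% in oma-1-gfp. The cause of these differences was not tested.

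Deviations of same-numbered RIP and input libraries correlated at 0.279 in fzy-1;oma-1ts-gfp and 0.0355 in oma-1ts-gfp, with 2 pairs each, which does not settle whether they are pairs. The labels do not say that a number marks one lysate, and the main fit does not take the numbers as pairs. With the replicate block, 906 genes were higher and 645 lower, among them all of the 666 and 378, and 45.7% of the higher genes were enriched in oma-1-gfp. Genes near 0 changed sign: *nos-2* was at -0.13 after quantile normalization, -0.0020 after rescaling to equal sums and between -0.31 and 0.60 without single libraries, *pos-1* at -0.52 after quantile normalization and between -0.050 and 0.52 without single libraries, and *pie-1* between -0.77 and 0.11. For *nos-2* and *pos-1* the sign turned without fzy-1;oma-1ts-gfp input replicate 2, and for *pie-1* without its input replicate 1.

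With 2 libraries per group, a gene's spread rests on few values. Calls were lost when a library of either strain was left out, also for large changes such as that of *ND4* (4.54). RPKM values near 0 rest on few reads, in particular in fzy-1;oma-1ts-gfp RIP replicate 2.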

Other observations

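Families of secreted and moulting genes were looked at after their values were seen. The counts of this section stand beside 5.79% higher and 3.29% lower of all genes tested. The lipocalin-related *lpr* genes stand side by side on the X chromosome, and all 4 tested were higher in fzy-1;oma-1ts-gfp, with a median change of enrichment of 3.56. *lpr-3* had 78.3 and 154 RPKM in fzy-1;oma-1ts-gfp RIP and 8.23 and 6.56 RPKM in its input, against 1.12 and 1.18 RPKM in oma-1ts-gfp RIP and 0.972 and 0.912 RPKM in its input. Its change was 3.58 (limma adjusted p = 0.00156) and that of *lpr-5* was 3.16. *lpr-6* was listed at 0 in both oma-1ts-gfp RIP libraries. The inputs of these genes were also higher, by a median of 2.17, beside a median RIP difference of 5.54. *lpr-4*, *lpr-5* and *lpr-6* lay under 1 RPKM in every oma-1ts-gfp library and passed the filter through fzy-1;oma-1ts-gfp only. Their enrichment in oma-1ts-gfp therefore rests largely on the added 1 RPKM.

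The hedgehog-related *wrt* genes were higher for 2 of 5, *wrt-1* and its neighbour *wrt-10*. *wrt-10* had 155 and 167 RPKM in fzy-1;oma-1ts-gfp RIP and 9.65 and 8.92 RPKM in its input, against 3.19 and 3.29 RPKM in oma-1ts-gfp RIP and 2.41 and 1.94 RPKM in its input, and its change was 3.55 (limma adjusted p = 0.000378). Of 8 moulting and *noah* genes 5 were higher, among them *noah-1* (2.62) and *mlt-10* (2.32). The higher genes *mlt-9* and *mlt-11* lay under 1 RPKM in every oma-1ts-gfp library and passed the filter through fzy-1;oma-1ts-gfp only. For *mlt-10* the inputs were level, at 2.66 and 2.29 RPKM in fzy-1;oma-1ts-gfp against 2.46 and 2.31 RPKM in oma-1ts-gfp. Of 14 *grd* and *grl* genes 3 were higher and 1 lower, with a median of 0.10. The 3 higher ones, *grl-5*, *grl-7* and *grl-15*, also lay under 1 RPKM in every oma-1ts-gfp library. *lpr-3*, *lpr-5*, *wrt-10*, *noah-1* and *mlt-10* were enriched in oma-1-gfp by 3.43, 3.21, 3.28, 1.54 and 2.05.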
